A study of Mus musculus with 18 samples.

Results

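The 8 genes described here are the prosurvival members of the BCL2 family Bcl2, Bcl2l1 (BCL-XL), Bcl2l2 (BCL-W) and Mcl1, the inhibitor of apoptosis (IAP) genes Birc2 (cIAP1), Birc3 (cIAP2) and Xiap, and the IAP antagonist Diablo (SMAC). They were taken by gene symbol from a table of 25239 genes. All 8 were listed and all 8 were among the 12828 genes that reached 1 TPM (a level per transcript length, scaled so that each library sums to the same total) in at least 3 libraries. Their values were followed through 18 libraries, which held 3 mouse small cell lung cancer lines of Type D, the study's name for lines that die when p53 is restored (4711-1, 4711-18 and 4716-11), each grown from a separate tumor. Each line carried Cas9 with sgBgal, a control sgRNA against β-Gal, or with sgPpia#3.2 or sgPpia#4.1 against Ppia, which encodes cyclophilin A. Each was then given vehicle (Control) or 4-OHT (Restored) for 72 h, which made 6 conditions with 3 lines in each. All groups share the deletion of Rb1 and Rbl2 by adenoviral Cre, expressed from the CMV promoter, a Trp53 gene trap (Trp53 XTR) and the Rosa26 FlpO-ER allele. In Restored cells, 4-OHT activates FlpO-ER, which removes the trap and restores p53, so that 4-OHT and p53 cannot be told apart in these comparisons. The Ppia transcript was lowered by the sgRNAs and not lost, and the same 3 lines recur in all conditions. Without the line in the fit, p-values measure the spread between lines from 3 tumors. With the line as a block, they measure what is left after each line's mean is taken out.

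Prosurvival BCL2 proteins hold the mitochondrial pathway of apoptosis in check. They bind the effectors BAX and BAK and the BH3-only proteins that activate them, and p53 is known for inducing several BH3-only genes and Bax. IAP proteins act further down. XIAP binds and inhibits caspases, whereas cIAP1 and cIAP2 are ubiquitin ligases of the TNF receptor complex that shape NF-κB signaling, and SMAC, once released from mitochondria, displaces IAP proteins from caspases. The study asked how cells with restored p53 die and which of their transcripts depend on cyclophilin A. It reports no apoptosis markers in its Type D lines. Overexpressed Bcl2, an apoptosis inhibitor and sgRNAs against Bax or Bbc3 did not prevent their death, which the study describes as non-apoptotic.

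Birc2 and Birc3 are neighboring paralogs on chromosome 9, in the same orientation and with no annotated gene between them. Their upstream sequences are shown because their estimates between Restored and Control cells had opposite signs in each sgRNA group, although those of Birc3 mostly did not pass, and that of Bcl2l1 because it had the largest estimate among the prosurvival genes. The sequences are from RefSeq (GRCm38.p6), which held start sites for all 8 genes. They run 5′ to 3′ up to the annotated start or the first annotated exon, all 3 are on the minus strand, and capitals mark CG dinucleotides. The Bcl2l1 stretch belongs to the most upstream of 3 annotated starts and lies inside the gene's annotated span, which reaches to base 152833803, whereas those of Birc2 (the upstream of 2 starts) and Birc3 lie just outside theirs.
Bcl2l1, chr2:152831729-152831978: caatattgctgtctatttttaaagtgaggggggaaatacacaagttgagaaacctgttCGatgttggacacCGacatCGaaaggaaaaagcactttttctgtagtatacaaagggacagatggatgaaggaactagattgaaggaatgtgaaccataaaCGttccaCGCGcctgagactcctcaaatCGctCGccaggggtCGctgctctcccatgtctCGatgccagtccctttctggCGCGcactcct
Birc2, chr9:7837132-7837307: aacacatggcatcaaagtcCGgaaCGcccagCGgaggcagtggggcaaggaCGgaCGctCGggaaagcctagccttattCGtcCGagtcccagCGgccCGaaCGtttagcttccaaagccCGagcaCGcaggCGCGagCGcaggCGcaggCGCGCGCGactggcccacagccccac
Birc3, chr9:7873206-7873420: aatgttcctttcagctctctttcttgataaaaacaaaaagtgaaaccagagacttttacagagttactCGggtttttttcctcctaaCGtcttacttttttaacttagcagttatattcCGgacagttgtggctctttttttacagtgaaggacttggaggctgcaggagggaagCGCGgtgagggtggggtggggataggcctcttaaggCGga

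The Birc2 stretch held 21 CG dinucleotides in 176 bases, whereas the Birc3 stretch held 6 in 215 bases and the Bcl2l1 stretch 12 in 250 bases. The windows of the other Bcl2l1 starts held 0 and 11. Over windows of 250 bases before 32851 annotated starts the median was 6, and 92.1% held at least 1. The same windows were searched on both strands for the p53 half-site consensus and the NF-κB site consensus. No window of the 8 genes, 13 in all, held the p53 half-site letters, which 7.13% of all windows held. The NF-κB letters stood in 1 window, that of another Bcl2l1 start, against 3.90% of all windows. These are descriptions of letters in short windows, and binding was not measured here.

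Trp53 and Cdkn1a separated the libraries by their labelled state. Trp53 was at 5.45 to 8.41 TPM in the 9 Control libraries and 181 to 236 TPM in the 9 Restored libraries, and Cdkn1a (p21, a p53 target) was at 99.4 to 369 against 1565 to 3806 TPM. The highest Control value of Cdkn1a, 369 TPM, belonged to line 4711-18 with sgPpia#3.2, and the other 8 Control libraries reached at most 171 TPM. The same library also stood apart in Bbc3 and Birc5, taken up below. It had 45.9 TPM of Bbc3 (at most 24.1 in the other 8) and 22.8 TPM of Birc5 (at least 33.1 in the other 8). Several values that rest on this library are also given without it below. Ppia was lower with a Ppia sgRNA than with sgBgal in 12 of 12 pairs of the same line and state. Its level was 0.255 to 0.496 of the sgBgal level with sgPpia#3.2 and 0.633 to 0.814 with sgPpia#4.1. The 0.255 came from that same Control library, and the next lowest value was 0.397. Cyclophilin A protein was not measured here. Rb1, deleted in the model, was at 3.36 to 9.44 TPM in Control and 14.6 to 30.8 TPM in Restored libraries and rose in each sgRNA group, by 1.78, 1.72 and 1.69 on the log2 scale (adjusted p = 0.00685, 0.00999 and 0.0109 by limma), and Rbl2 was at 1.98 to 6.66 TPM. A gene's total does not show whether some of its exons are missing, so these levels do not check the deletions. Of 7 neuroendocrine markers, Calca, Chga and Neurod1 stayed below 1 TPM in every library. Insm1 was at 1.78 to 3.37 TPM in 4711-1 and at most 0.0690 TPM in the other lines, and Uchl1 was at 1.21 to 2.81 TPM, while Syp was at 3.03 to 7.12 TPM and Ncam1 at 6.90 to 29.7 TPM. The small cell cancer type is taken from the label. Of 11 markers of other cell types, 7 stayed below 1 TPM everywhere, and without Cd68 the list summed to 1.503 to 4.44 TPM in Control and 1.22 to 2.36 TPM in Restored libraries. Cd68, a lysosomal gene of macrophages and other cells, was at 1.997 to 7.13 against 21.3 to 39.8 TPM, and its part in the results was not tested. Its 7.13 TPM also belonged to the library that stood apart in Cdkn1a, and the other 8 Control libraries reached at most 3.85 TPM. Absolute depth is unknown, and relative depth was 1.07 to 1.78 in Control and 1 to 1.65 in Restored libraries.

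Mcl1 and Bcl2l1 made up most of the prosurvival BCL2 transcript in both states. In the 9 Control libraries the median level was 115 TPM for Mcl1, 80.8 for Bcl2l1, 10.7 for Bcl2l2 and 5.14 for Bcl2, and among the other genes 41.6 for Diablo, 28.7 for Xiap, 11.4 for Birc2 and 8.46 for Birc3. Mcl1 exceeded Bcl2l1 in 8 of 9 Control libraries, Bcl2l1 exceeded Diablo in 9, Diablo exceeded Xiap in 8 and Xiap exceeded Birc2 in 9. Birc2, Bcl2l2 and Birc3 could not be ordered by their spread: Birc2 exceeded Bcl2l2 in 4 of 9 and Bcl2l2 exceeded Birc3 in 6 of 9. In Restored libraries Xiap stood above Diablo in 6 of 9. Bcl2, the family's founding member and an inhibitor of mitochondrial apoptosis, had the lowest median in both states, at 4.55 to 7.34 TPM in Control and 2.72 to 7.26 TPM in Restored libraries. The other prosurvival genes of the family, Bcl2a1a, Bcl2a1b, Bcl2a1d and Bcl2l10, were all listed, and 0 of 4 reached the minimum for testing.

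**Figure D1:**
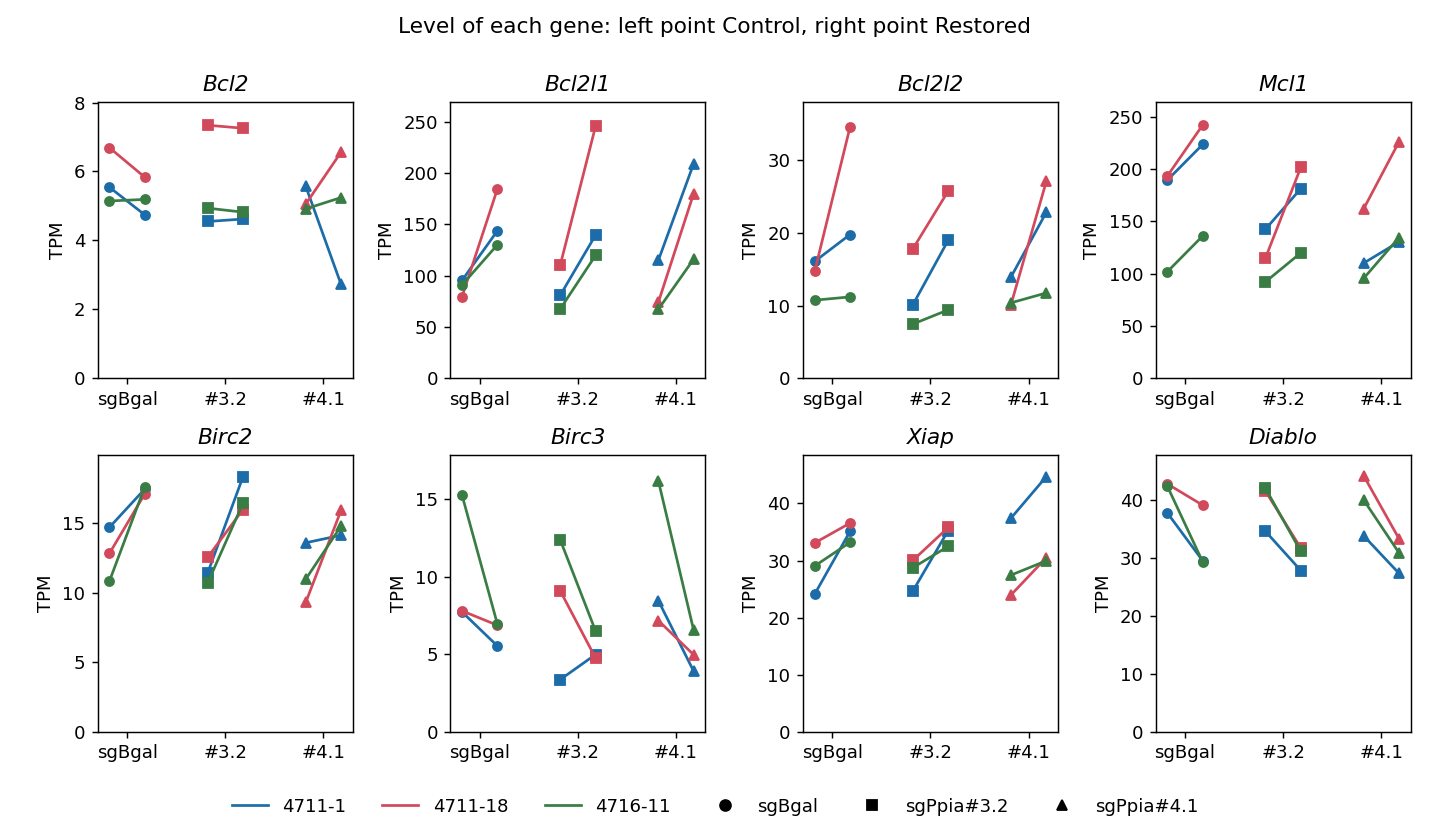
TPM of the 8 genes in each of the 18 libraries (linear axes from 0), with the left point of each pair for Control and the right for Restored, color for the cell line and symbol for the sgRNA. Bcl2l1 is higher in Restored in 9 of 9 pairs and Diablo lower in 9 of 9, while Bcl2 goes either way.

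Restoration of p53 was compared with Control within each sgRNA. Bcl2l1 was higher, by 1.43 to 2.43 times, and Birc2 was moderately higher in the restored cells of every line, whereas Diablo was lower in every line. These 3 genes passed the adjusted p in all 3 sgRNA groups once differences between lines were taken out, as 42.1%, 34.1% and 35.1% of all tested genes did in either direction in the order sgBgal, sgPpia#3.2 and sgPpia#4.1. Median-of-ratios rescaling ended this for Bcl2l1 with sgBgal and for Birc2 with sgBgal and sgPpia#4.1. Leaving out 4716-11 ended it for all 3 genes in all 3 groups (adjusted p = 0.067 to 0.29 by limma with the block), and leaving out 4711-1 ended it for Diablo in all 3. In bulk libraries, a lower level may mean fewer cells with the transcript or less of it per cell, which cannot be told apart. None of the 8 genes met the study's thresholds for a changed gene, which are an adjusted p under 0.05 together with a 2-fold change in either direction (limma on log2(TPM + 1), with p-values adjusted over all genes tested). In the same comparisons 7.64% of all tested genes met them with sgBgal, 5.75% with sgPpia#3.2 and 6.09% with sgPpia#4.1. At an unadjusted p under 0.05 the counts were 2, 3 and 4 of the 8 genes in that order, against 28.5%, 23.8% and 24.4% of all tested genes. By the adjusted p alone, Birc2 with sgPpia#3.2 passed as higher, and none passed with sgBgal or sgPpia#4.1. After rescaling Birc2 no longer passed (adjusted p = 0.171 by limma), and Diablo passed as lower in all 3 comparisons. So did 848, 572 and 621 of all 12828 tested genes after rescaling, with sgBgal, sgPpia#3.2 and sgPpia#4.1. Before rescaling, 9.86% of all tested genes passed as higher and 3.96% as lower with sgBgal, 7.62% and 2.39% with sgPpia#3.2, and 7.16% and 3.14% with sgPpia#4.1. Bcl2l1, Bcl2l2, Mcl1, Birc2 and Xiap were higher in 9 of 9 pairs of the same line and sgRNA, as were 30.8% of all tested genes, and after median-of-ratios rescaling Bcl2l1, Mcl1 and Birc2 were still higher in 9, Bcl2l2 in 8 and Xiap in 5 of 9.

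Libraries of the same line deviated together from their condition means, so a fit that keeps each line as a replicate block is given beside the first. It took the count of genes passing the adjusted p from 0, 1 and 0 of 8 to 3, 4 and 5 of 8, and the count past both thresholds stayed at 0, against 11%, 8.61% and 9.18% of all tested genes. With sgBgal they were Bcl2l1, Birc2 and Diablo, with sgPpia#3.2 also Mcl1, and with sgPpia#4.1 also Bcl2l2 and Birc3. In that fit 30.2% of all tested genes passed as higher and 12% as lower with sgBgal, 25.3% and 8.86% with sgPpia#3.2, and 24.3% and 10.8% with sgPpia#4.1. Over all tested genes the median log2 fold change was 0.19, 0.17 and 0.15 with sgBgal, sgPpia#3.2 and sgPpia#4.1, and that of the 8 genes was 0.30, 0.41 and 0.31. Median-of-ratios rescaling took the median of all genes to -0.0025, -0.0068 and -0.0027, and that of the 8 genes to 0.087, 0.21 and 0.15. Exact permutation of 3 Control against 3 Restored libraries gave p of 0.1 or more for each of the 8 genes, where 0.1 is the smallest possible. Adjusted over 24 tests, this p was 0.2 or more. The exact sign-flip p over the 3 lines was 0.25 or more, where 0.25 is the smallest possible.

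**Figure D2:**
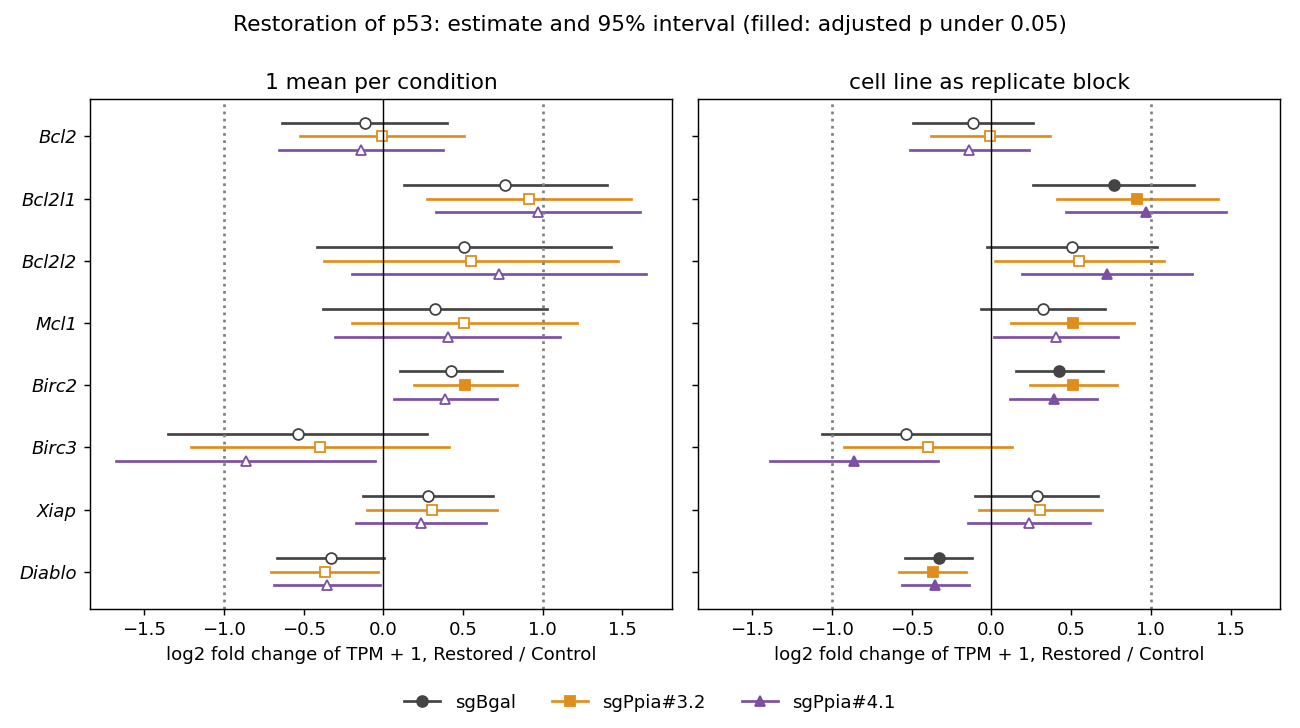
Log2 fold change of TPM + 1 between Restored and Control for each gene and sgRNA, with the 95% interval, from the fits without (left) and with (right) the replicate block. Filled symbols have an adjusted p under 0.05 and dotted lines mark a log2 fold change of 1 in either direction, which no estimate reaches.

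Bcl2l1 encodes BCL-XL, which binds BAX, BAK and BH3-only proteins. With sgBgal it was at 95.4, 79.5 and 90.9 TPM in Control cells of 4711-1, 4711-18 and 4716-11, and at 144, 184 and 130 TPM in their Restored cells. With sgPpia#3.2 the Control values were 80.8, 110 and 67.5 TPM in the same order of lines, and the Restored values 139, 245 and 120 TPM. With sgPpia#4.1 they were 115, 74.0 and 67.1 TPM in Control and 209, 180 and 116 TPM in Restored cells. The lowest Restored library, at 116 TPM, lay just above the highest Control library, at 115 TPM, so the 9 and 9 libraries did not overlap, as held for 8.12% of all tested genes. Its log2 fold change was 0.77 ± 0.30 (SE) with sgBgal, 0.91 ± 0.30 with sgPpia#3.2 and 0.97 ± 0.30 with sgPpia#4.1, with adjusted p = 0.105, 0.0681 and 0.0529 in limma without the block and 0.0186, 0.00922 and 0.00642 with it. Line 4711-18 had the largest folds, 2.23 to 2.43, whereas the folds were 1.51 to 1.82 in 4711-1 and 1.43 to 1.77 in 4716-11. Without the Control library that stood apart in Cdkn1a, the log2 fold change with sgPpia#3.2 was 1.10, with an adjusted p = 0.0487, which meets both thresholds, as did the blocked fit without it (1.03, adjusted p = 0.0126). The blocked fit without 4711-1 also met both with sgPpia#4.1 (1.03, adjusted p = 0.0209). Without line 4716-11 the blocked adjusted p was 0.0832, 0.095 and 0.067, and without 4711-18 it was 0.0766 with sgBgal. After rescaling, the blocked adjusted p was 0.0706, 0.0281 and 0.0162.

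Mcl1, a short-lived prosurvival protein, was higher in Restored than in Control cells in 9 of 9 pairs, with a smaller fold. With sgBgal it was at 189, 193 and 102 TPM in Control cells of 4711-1, 4711-18 and 4716-11 and at 223, 242 and 136 TPM in Restored cells. With sgPpia#3.2 it was at 142, 115 and 92.1 TPM against 181, 201 and 120 TPM, and with sgPpia#4.1 at 110, 162 and 95.4 TPM against 130, 226 and 134 TPM. The groups overlapped in each sgRNA, and 4716-11 was the lowest line in 5 of 6 conditions. For Mcl1 the log2 fold change was 0.32, 0.51 and 0.40 (SE 0.33 in each), with adjusted p = 0.57, 0.383 and 0.505 in limma without the block and 0.161, 0.0426 and 0.0963 with it. For sgPpia#3.2, the blocked log2 fold change was 0.32 and its adjusted p 0.187 without the Control library that stood apart, and the adjusted p was 0.226 without 4711-18, 0.178 without 4716-11 and 0.225 after rescaling.

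Bcl2l2, which encodes BCL-W, differed between lines in its response. Its Restored level was 1.45 to 2.68 times its Control level in 4711-18 and 1.23 to 1.88 times in 4711-1, but 1.04 to 1.26 times in 4716-11, and these differences between lines were not tested. In 4711-18 it went from 14.7, 17.8 and 10.1 TPM in Control cells with sgBgal, sgPpia#3.2 and sgPpia#4.1 to 34.5, 25.7 and 27.1 TPM. In 4716-11 it went from 10.7, 7.45 and 10.4 TPM to 11.2, 9.40 and 11.7 TPM. Over the lines the log2 fold change was 0.51, 0.55 and 0.72 (SE 0.43 in each), with adjusted p = 0.485, 0.487 and 0.333 without the block and 0.115, 0.0989 and 0.0358 with it. The last became 0.134, 0.106 and 0.0615 without 4711-1, 4711-18 and 4716-11, and 0.0736 after rescaling, while that for sgPpia#3.2 was 0.0319 without 4711-18. Part of the gene's annotated exons, 13.3% of their bases, is shared with the read-through gene Gm20521, so reads there could have been counted for either. Bcl2 was higher in 4 and lower in 5 of 9 pairs, and its log2 fold change was -0.12, -0.0085 and -0.14 with 95% intervals within -0.66 to 0.51 without the block. After rescaling it was lower in 8 of 9 pairs, with -0.30, -0.18 and -0.29 and a blocked adjusted p of 0.14, 0.395 and 0.166.

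The 4 prosurvival genes together were at 172 to 306 TPM in Control and 254 to 480 TPM in Restored libraries, higher in 9 of 9 pairs. Bcl2l1 took 27.0 to 47.0% of this sum in Control and 36.7 to 57.3% in Restored libraries, and its share was higher in 9 of 9 pairs. The mean share of Mcl1 was 55.4% in Control and 48.5% in Restored libraries, lower in 9 of 9 pairs, although its own TPM was higher. The Bcl2 share was also lower in 9 of 9, with means of 2.37% and 1.47%. Ratios of this kind do not depend on how the libraries were scaled. The ratio of Bcl2l1 to Mcl1 was 0.603 ± 0.255 (SD, n = 3) in Control and 0.787 ± 0.158 in Restored cells with sgBgal, 0.753 ± 0.196 and 0.995 ± 0.224 with sgPpia#3.2, and 0.735 ± 0.295 and 1.09 ± 0.448 with sgPpia#4.1. Exact two-sided permutation p-values were 0.3, 0.2 and 0.4, where 0.1 is the smallest that 3 against 3 allows, and the exact sign-flip p over the 3 lines was 0.25, also the smallest possible.

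Birc2 encodes cIAP1, a ubiquitin ligase that keeps RIPK1 ubiquitinated and restrains non-canonical NF-κB signaling. With sgBgal it was at 14.7, 12.8 and 10.8 TPM in Control cells of 4711-1, 4711-18 and 4716-11 and at 17.5, 17.1 and 17.6 TPM in Restored cells. With sgPpia#3.2 it was at 11.4, 12.5 and 10.7 TPM against 18.3, 16.0 and 16.4 TPM, and with sgPpia#4.1 at 13.6, 9.30 and 11.0 TPM against 14.1, 15.9 and 14.8 TPM. Within each sgRNA the lowest Restored library lay above the highest Control library, as held for 22.1%, 19.1% and 17.8% of all tested genes in the order sgBgal, sgPpia#3.2 and sgPpia#4.1. Its log2 fold change was 0.43, 0.51 and 0.39 (SE 0.15 in each), with adjusted p = 0.0763, 0.0436 and 0.122 in limma without the block and 0.0167, 0.00758 and 0.0294 with it. Rescaled, the values were 0.22, 0.33 and 0.23, and the blocked adjusted p was 0.12, 0.0318 and 0.118. On the deposited scale the blocked adjusted p was 0.275, 0.148 and 0.223 without 4716-11, 0.0656 with sgPpia#3.2 without 4711-1, and 0.261 with sgPpia#4.1 without 4711-18.

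Birc3, which encodes cIAP2 and is known as a target of NF-κB, had estimates of the opposite sign. It was lower in Restored cells in 8 of 9 pairs, the exception being 4711-1 with sgPpia#3.2, where it was at 3.36 TPM in Control and 4.98 TPM in Restored cells. In 4716-11 the Control values with sgBgal, sgPpia#3.2 and sgPpia#4.1 were 15.3, 12.4 and 16.2 TPM and the Restored values 6.94, 6.51 and 6.55 TPM. In 4711-18 they were 7.80, 9.09 and 7.18 TPM against 6.87, 4.76 and 4.96 TPM, and with sgBgal and sgPpia#4.1 in 4711-1 they were 7.73 and 8.46 TPM against 5.53 and 3.90 TPM. The 3 Control libraries of 4716-11 were the highest of all, and Restored libraries of all lines lay between 3.90 and 6.94 TPM. For Birc3 the log2 fold change was -0.54, -0.40 and -0.86 (SE 0.38 in each), with adjusted p = 0.385, 0.582 and 0.175 without the block and 0.0927, 0.225 and 0.0151 with it. The last was 0.167 without 4716-11, whereas without 4711-18 the blocked log2 fold change with sgPpia#4.1 was -1.07 with an adjusted p of 0.0333, which meets both thresholds. With sgPpia#3.2 the blocked adjusted p was 0.0438 without 4711-1, and without the Control library that stood apart the log2 fold change was -0.18 with an adjusted p of 0.618. After rescaling the log2 fold change was -0.73, -0.57 and -1.02 and the blocked adjusted p 0.0259, 0.0795 and 0.00516, so that Birc3 with sgPpia#4.1 met both thresholds there too.

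The ratio of Birc3 to Birc2 was lower in Restored cells in 9 of 9 pairs. Its median was 0.725 in Control and 0.317 in Restored libraries, with ranges of 0.295 to 1.48 and 0.272 to 0.443. The mean log2 difference over the 3 lines was -1.06 ± 0.68, -0.98 ± 0.76 and -1.41 ± 0.30 (SD, n = 3) in the order sgBgal, sgPpia#3.2 and sgPpia#4.1, and the exact permutation p was 0.1, 0.3 and 0.1. The Control and Restored groups did not overlap with sgBgal or sgPpia#4.1 and overlapped with sgPpia#3.2.

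Xiap, the direct caspase inhibitor, was at 24.0 to 37.4 TPM in Control and 30.0 to 44.7 TPM in Restored libraries. It was higher in Restored cells in 9 of 9 pairs, by 1.09 to 1.46 times, and in 5 of 9 after rescaling. The log2 fold change was 0.28, 0.31 and 0.24 (SE 0.19 in each), and the adjusted p was 0.358, 0.362 and 0.502 in limma without the block and 0.218, 0.201 and 0.322 with it. After rescaling the differences were 0.069, 0.11 and 0.065.

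Diablo, which encodes the IAP antagonist SMAC, was lower in Restored than in Control cells in 9 of 9 pairs on either scale, as held on the deposited one for 12.8% of all tested genes. With sgBgal it was at 37.8, 42.8 and 42.4 TPM in Control cells of 4711-1, 4711-18 and 4716-11 and at 29.5, 39.1 and 29.4 TPM in Restored cells. With sgPpia#3.2 it was at 34.6, 41.6 and 42.0 TPM against 27.8, 31.7 and 31.1 TPM, and with sgPpia#4.1 at 33.8, 44.2 and 40.04 TPM against 27.4, 33.4 and 30.9 TPM. The groups overlapped with sgBgal, where 4711-18 kept the highest Restored value, and did not overlap with either Ppia sgRNA, where 7.43% (sgPpia#3.2) and 8.23% (sgPpia#4.1) of all tested genes were lower without overlap. Its log2 fold change was -0.33, -0.37 and -0.35 (SE 0.16 in each), with adjusted p = 0.182, 0.164 and 0.18 in limma without the block and 0.0162, 0.011 and 0.0136 with it. Rescaling made it -0.54, -0.57 and -0.52, and the adjusted p was 0.0293, 0.0299 and 0.0406 without the block. On the deposited scale the blocked adjusted p was 0.29, 0.183 and 0.17 without 4716-11, 0.126, 0.0843 and 0.0796 without 4711-1, and 0.0585 with sgPpia#4.1 without 4711-18. The annotated exons of Diablo share 19.3% of their bases with Gm49027 on the same strand and 21.5% with B3gnt4 on the other, and B3gnt4 reached at most 1.30 TPM here.

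Set against its targets, Diablo was at 0.569 to 1.09 of the summed TPM of Xiap, Birc2 and Birc3 in Control and 0.436 to 0.649 in Restored libraries, lower in 9 of 9 pairs. The ratio was 0.793 ± 0.0216 (SD, n = 3) and 0.554 ± 0.0797 with sgBgal, 0.831 ± 0.0405 and 0.533 ± 0.0496 with sgPpia#3.2, and 0.799 ± 0.268 and 0.563 ± 0.112 with sgPpia#4.1. The groups did not overlap with sgBgal or sgPpia#3.2, with an exact permutation p of 0.1 in each, and overlapped with sgPpia#4.1, with p = 0.3. Adjusted over the 9 tests on the 3 ratios, these p-values were 0.225 to 0.4.

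**Figure D3:**
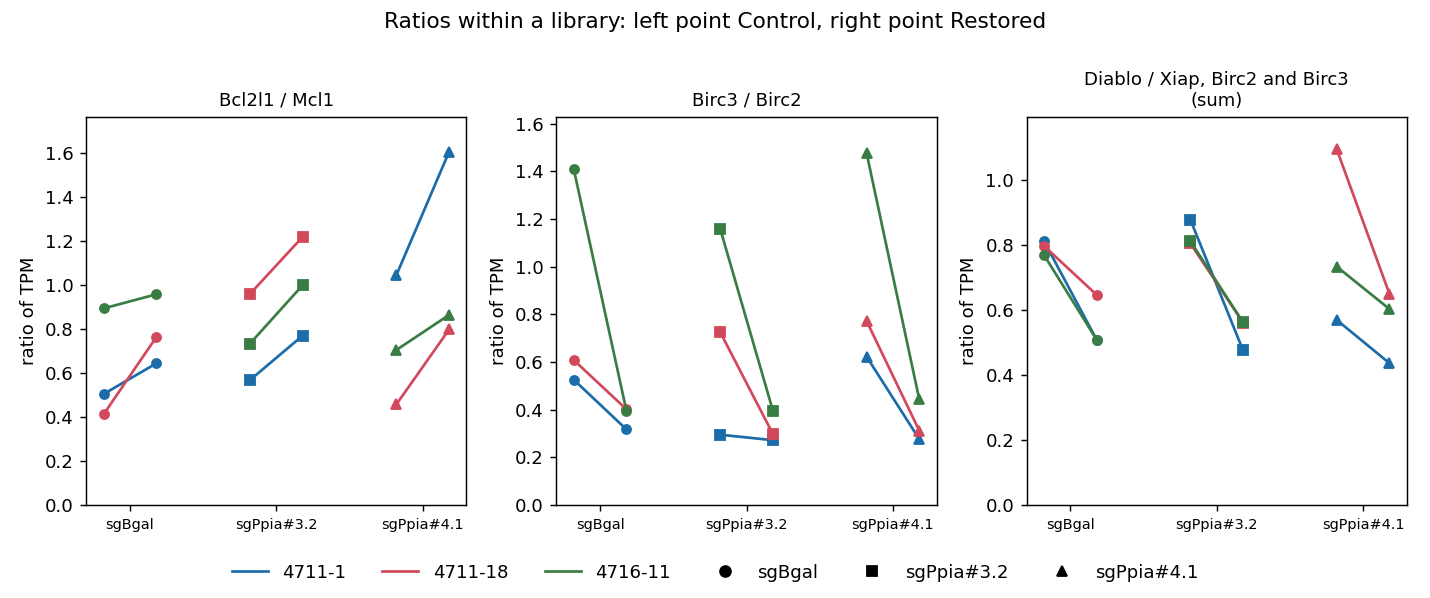
Ratios of TPM within each of the 18 libraries (linear axes from 0), Control on the left and Restored on the right of each pair, color for the cell line and symbol for the sgRNA. Bcl2l1 over Mcl1 goes up and the other ratios go down in 9 of 9 pairs, and Birc3 over Birc2 ends between 0.272 and 0.443 in all Restored libraries.

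The sgRNAs against Ppia were compared with sgBgal in Control and in Restored cells, and the response to restoration was compared between sgRNAs, to see which levels moved with a reduced Ppia transcript. None of the 8 genes passed in any of these 6 comparisons, in which 0% of all tested genes met the thresholds without the block. With it, 2 of all tested genes met them for sgPpia#3.2 in Control cells and 1 for sgPpia#3.2 in Restored cells. Without the block, 311 and 27 of all tested genes had an unadjusted p under 0.05 with sgPpia#3.2 and sgPpia#4.1 in Control cells, and 0 of the 8 genes did. The smallest unadjusted p of the 8 genes was 0.191 in the comparisons with sgBgal and 0.553 in the differences between responses. With the block, these were 0.0313 and 0.362, and the smallest adjusted p was 0.36. In the comparison that gave the first of these, sgPpia#3.2 in Control cells, 1 of the 8 genes and 1628 of all 12828 tested genes had an unadjusted p under 0.05 with the block. The log2 differences from sgBgal lay between -0.43 and 0.11, with 95% intervals that reached from -1.20 to 0.90 without the block, so larger differences than those estimated lie within the error.

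Mcl1 was lower with a Ppia sgRNA than with sgBgal in 12 of 12 pairs of the same line and state, and in 10 of 12 after median-of-ratios rescaling. Of all tested genes, 3.41% were lower in 12 of 12 on the deposited scale. Its level was 0.581 to 0.989 of that with sgBgal. In Control cells the log2 difference was -0.43 with sgPpia#3.2 and -0.38 with sgPpia#4.1, and in Restored cells -0.25 and -0.30 (SE 0.33 in each). The adjusted p was 1 or nearly 1 without the block, and with the block it was 0.36 for sgPpia#3.2 in Control cells, at an unadjusted p of 0.0313 by limma. Without the Control library that stood apart, that difference was -0.25, with an unadjusted p of 0.197 and an adjusted p of 0.721 by limma with the block. In the same fit Birc3 had the lowest p of the 8 genes for sgPpia#3.2 in Control cells, with -0.57, an unadjusted p of 0.0468 and an adjusted p of 0.569 by limma. The differences were smallest in 4716-11, where Control cells had 102, 92.1 and 95.4 TPM of Mcl1 in the order sgBgal, sgPpia#3.2 and sgPpia#4.1. The 12 pairs share 6 sgBgal libraries and are not 12 independent comparisons. None of the other 7 genes went one way in all 12 pairs, and Xiap ranged from 0.724 to 1.55 of its sgBgal level.

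**Figure D4:**
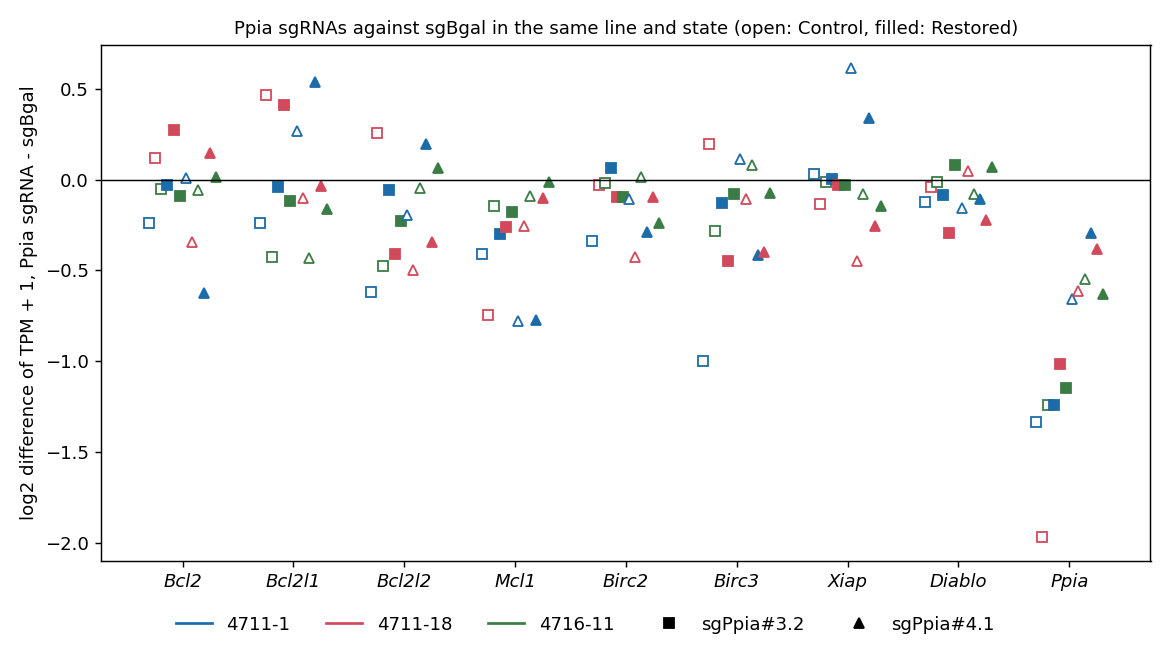
Log2 difference of TPM + 1 between each Ppia sgRNA and sgBgal in the same line and state, 12 points per gene, open for Control and filled for Restored, with color for the line and symbol for the sgRNA. On this scale all 12 points of Mcl1 (10 after rescaling) and of the targeted gene Ppia lie below 0, and those of the other 7 genes lie on both sides.

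The lists of other genes of the pathway held genes past both thresholds. Of all tested genes, 7.64%, 5.75% and 6.09% met both with sgBgal, sgPpia#3.2 and sgPpia#4.1 (11%, 8.61% and 9.18% with the block). Of 9 tested BH3-only and effector genes, 3 rose at the study's thresholds in each sgRNA group: Bax, the pore-forming effector, Bbc3 (PUMA) and Pmaip1 (NOXA), whose products bind prosurvival BCL2 proteins. With sgBgal, Bax went from 288 to 482 TPM in Control to 988 to 1069 TPM in Restored cells, with a log2 fold change of 1.34 and an adjusted p = 0.000841 by limma. Bbc3 had log2 fold changes of 2.21, 1.95 and 1.99, and Pmaip1 of 2.45, 2.37 and 2.17. Bmf, a BH3-only gene linked to cell detachment, fell with sgBgal at these thresholds (log2 fold change -1.91, adjusted p = 0.0345 by limma), and with the Ppia sgRNAs its estimates of -1.18 and -1.72 did not pass, although the latter passed with the block (adjusted p = 0.0317). Bok, an effector related to BAX, was lower in Restored cells in 9 of 9 pairs, at 0.306 to 0.832 of the Control level. Its log2 fold change was -1.03, -1.14 and -0.90, with adjusted p = 0.105, 0.0888 and 0.181 without the block and 0.00275, 0.00169 and 0.00711 with it, so that it met both thresholds with sgBgal and sgPpia#3.2 in the blocked fit. The median log2 fold change of these 9 genes was 0.29, 0.30 and 0.21.

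Of 4 caspase and apoptosome genes, Apaf1, the apoptosome scaffold, rose in each sgRNA group, with log2 fold changes of 2.17, 2.08 and 1.99. Of 3 tested further genes with a BIR domain, Birc5 (survivin), best known for its role in cell division, fell in each group, from 22.8 to 60.5 TPM in Control to 1.93 to 16.5 TPM in Restored libraries. Without the Control library that stood apart, its lowest Control value was 33.1 TPM. Of 3 further IAP antagonists, Xaf1, which binds XIAP, rose in each group with a log2 fold change of 1.30, 1.30 and 1.29, from 0.341 to 1.04 TPM to 1.30 to 5.41 TPM. Htra2, a mitochondrial protease that binds IAP proteins, was lower in 9 of 9 pairs, at 0.645 to 0.973 of the Control level, and passed the adjusted p as lower with the block with sgBgal and sgPpia#3.2 (log2 fold change -0.38 and -0.46, adjusted p = 0.0341 and 0.0174). Of 12 tested TRAF and NF-κB partners, none met both thresholds without the block. Cflar, which encodes the caspase-8 regulator c-FLIP, met them with the block with sgBgal (log2 fold change 1.01, adjusted p = 0.00274) and sgPpia#4.1 (1.08, adjusted p = 0.00225), and had 0.78 with sgPpia#3.2. Rela, an NF-κB subunit, passed the adjusted p in each group with log2 fold changes of 0.88, 0.82 and 0.86. Of 4 genes that control MCL1 turnover (Huwe1, Usp9x, Fbxw7 and Bag6), none passed without the block, and Fbxw7 passed the adjusted p as higher in all groups with it. Of the other genes of these lists, the block brought Naip2, Bad and Traf3 past the adjusted p as higher and Traf1 as lower in all groups, and Ripk1 and Map3k14 as higher in some. With the block, 30.2%, 25.3% and 24.3% of all tested genes passed it as higher in the order sgBgal, sgPpia#3.2 and sgPpia#4.1, and 12%, 8.86% and 10.8% as lower. The 3 comparisons use different Control libraries of the same lines.

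**Figure D5:**
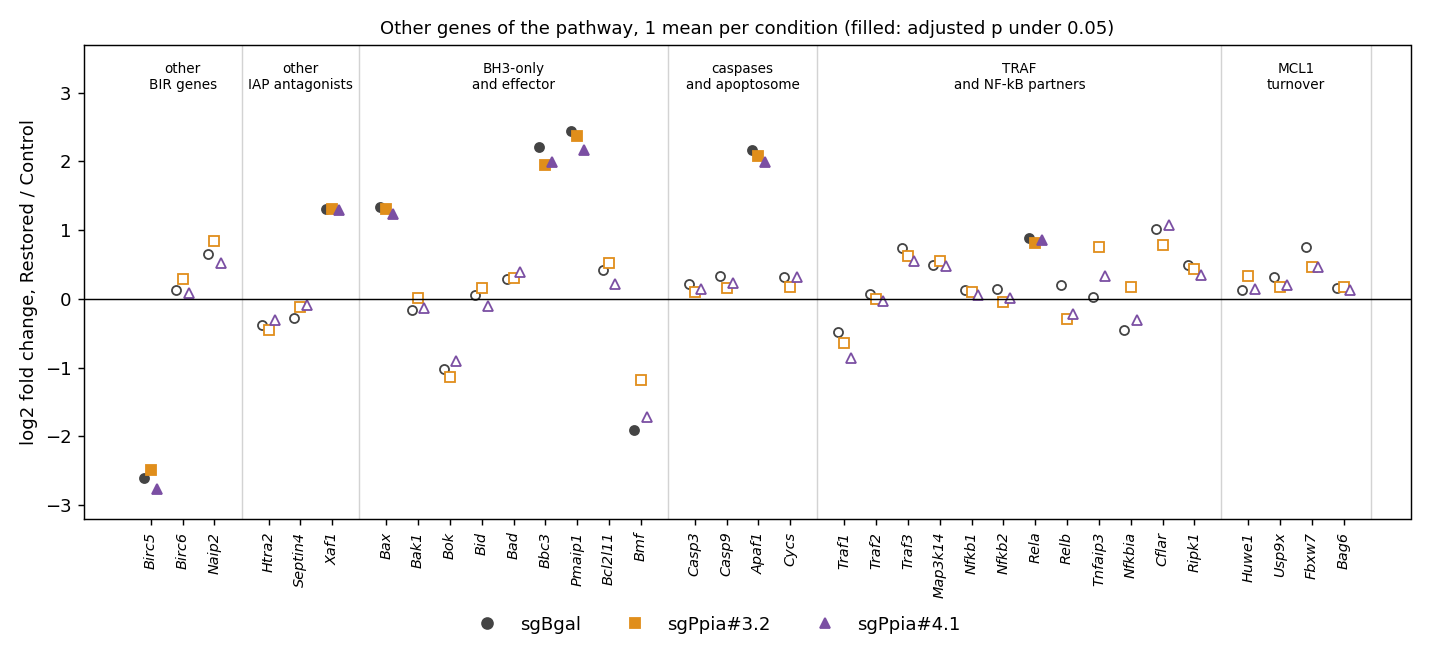
Log2 fold change of TPM + 1 between Restored and Control for the other tested genes of the pathway, by list, with symbol and color for the sgRNA and filled symbols for an adjusted p under 0.05 without the replicate block. Birc5 lies below -2 and Bbc3, Pmaip1 and Apaf1 lie near or above 2 in all 3 sgRNA groups.

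Across the 18 libraries, the genes whose log2(TPM + 1) ran most like Bcl2l1 were H2-DMb1 (Pearson r = 0.967), Scamp1 (0.965) and Spop (0.962). Those most like Diablo were Mmadhc (0.977), Atl2 (0.956) and Blmh (0.952), and those most like Bcl2l2 were Gpr107 (0.968), Mief1 (0.955) and Golga3 (0.954). For Mcl1 they were Rpap1 (0.953), Aqr (0.934) and Nup214 (0.922), and for Birc2 Mid2 (0.949), Acrbp (0.946) and Tut4 (0.935). Birc3 had Mettl9 (0.917), A930033H14Rik (0.869) and Dock11 (0.865), Bcl2 had Bmp4 (0.86), Dhrs3 (0.857) and Tshz2 (0.849), and Xiap had Gm5141 (0.891), B230219D22Rik (0.847) and Picalm (0.837). Among the 8 genes, Bcl2l1 and Bcl2l2 were most alike (r = 0.822), followed by Bcl2l1 and Birc2 (0.749), and Birc2 and Diablo were most opposed (-0.749). These values are descriptions, since the libraries share lines, treatment and scaling, and each best match was picked from 12827 genes.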

How the data were processed

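The authors deposited TPM, not whole numbers, for 18 mouse RNA-sequencing libraries, prepared with NEBNext Ultra II reagents. The submitters' processing notes name bcl2fastq 2.17 and HISAT2 and give both mm10 and GRCm39. The counter, its strand setting and the annotation are not given in the sources used here. TPM hold no absolute depth, so no counting error was computed, and relative depth came from the steps between values under 0.3 TPM. The 12828 genes that reached 1 TPM in 3 or more libraries were tested with limma 3.58.1 (R 4.3.3) on log2(TPM + 1), with 1 mean per condition and Benjamini-Hochberg adjustment over all of them. Fold changes on this scale understate those of low genes. The cell line, given by the labels, pairs the samples (correlation of deviations from condition means 0.58 to 0.87 within a line, mean -0.36 between lines), and the block was fitted as an alternative. Exact permutation and sign-flip tests used scipy 1.17.1. On simulated data for Restored against Control with sgBgal (12828 genes), limma recovered 68.5% of 200 changed genes without and 91% with the block, with 1 and 8 false calls. The simulated log2 changes were at least 1, which no estimate of the 8 genes reached with all libraries on the deposited scale. Line effects were simulated as the same in every condition, as the block assumes, so these rates do not carry over to the 8 genes. All 8 genes, 3 checks of the labels, every list gene meeting the thresholds (at most 6 per list) and the 3 most similar genes per member were named. Mcl1 against sgBgal and genes passing by adjusted p alone or with the block were singled out after their values were seen. The members and lists were chosen with earlier results of these data known. Alternatives tried were rescaling by median of ratios, a pseudocount of 0.1, no filter or a minimum of 5 TPM, the block, only the groups compared, trend and robust eBayes, adjusted p alone and leaving out each line. Leaving out the library that stood apart in Cdkn1a, and combining rescaling or the adjusted p alone with the block, were added after seeing the data. Sequences are RefSeq's (GRCm38.p6) and exon overlaps GENCODE M21's. No protein sequences were used here. Some genes of the lists are not reported here.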

Additional observations from a re-analysis of the deposited data

How the results depend on the processing

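None of the 8 genes met both thresholds in any comparison under a pseudocount of 0.1, rescaling by median of ratios, another filter, the replicate block, the groups compared alone, trend and robust eBayes or, without the block, leaving out a line. By the adjusted p alone, 1 gene passed with sgPpia#3.2, and together with the replicate block 3 passed with sgBgal, 4 with sgPpia#3.2 and 5 with sgPpia#4.1, against 42.1%, 34.1% and 35.1% of all tested genes. Leaving out the library 4711-18 sgPpia#3.2 Control brought 1 gene (Bcl2l1 with sgPpia#3.2) past both thresholds, and rescaling with the block brought 1 (Birc3 with sgPpia#4.1). With the block and a line left out, Bcl2l1 with sgPpia#4.1 met both without 4711-1 (1.03) and Birc3 with sgPpia#4.1 without 4711-18 (-1.07). Bcl2 changed sign with sgPpia#3.2 without the library 4711-18 sgPpia#3.2 Control (0.17 without and 0.064 with the block). Over left-out lines it ranged from -0.022 to 0.0015 with sgPpia#3.2 and from -0.37 to 0.20 with sgPpia#4.1. The other genes kept the sign of Restored against Control under all alternatives run, as did Mcl1 against sgBgal. For the other 7 genes, 53 of 504 alternative values of the comparisons between sgRNAs changed sign, and 0 met the thresholds. All were for log2 differences of at most 0.16 in the first fit, and the values with the changed sign reached -0.264 and 0.279. Over all tested genes, 980, 738 and 781 met both thresholds with sgBgal, sgPpia#3.2 and sgPpia#4.1. By the adjusted p alone these were 1773, 1284 and 1322, by both thresholds with the block 1414, 1105 and 1177, and with only the groups compared 367 with sgPpia#3.2 and 416 with sgPpia#4.1. In the same order, leaving out a line gave 471 to 674, 229 to 633 and 278 to 690, each lowest without 4716-11. Rescaling took the split of genes higher and lower from 701 and 279 to 479 and 391 with sgBgal, from 570 and 168 to 413 and 243 with sgPpia#3.2, and from 552 and 229 to 414 and 296 with sgPpia#4.1. The cause of these changes was not tested. Depth may limit the genes with the lowest median TPM, Bcl2 and Birc3, but read counts also follow transcript length and are unknown.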
